A study of Mus musculus with 10 samples.

Results

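The IL-12 family and IL-18 axis was taken as 10 genes chosen by name: the cytokine subunit genes *Il12a*, *Il12b*, *Il23a*, *Il27* and *Ebi3*, the IL-12 receptor chains *Il12rb1* and *Il12rb2*, the cytokine *Il18* and the IL-18 receptor chains *Il18r1* and *Il18rap*. All 10 had a probe among the 770 gene probes (750 endogenous and 20 reference) of a NanoString PanCancer Immune Profiling panel, which counts barcoded probes on RNA without amplification. The panel was run on 10 melanomas, 5 grown in WT mice and 5 in mice lacking the ubiquitin ligase gene *Siah2* (Siah2 KO), to map changes of immune genes in the tumor. All mice were C57BL/6 males injected under the skin with 400000 YUMMER1.7 cells, a mouse melanoma line that was not itself deleted for *Siah2*, so that the deletion was in the host, where it was not limited to a cell type. Ages were given as 5 to 7 weeks with the growth curves and 6 to 10 weeks in the reporting summary, and the tumors were collected at day 11 according to the labels and day 10 according to the legend. The general description of the series names other cells (Yumm1.5) and another deletion (*Rnf5*), whereas the labels of all 10 tumors and the methods name YUMMER1.7 and *Siah2*, which were followed here. The panel has no *Siah2* probe, so the deletion could not be checked in these values.

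IL-12 is a pair of the p40 subunit (*Il12b*) and the p35 subunit (*Il12a*), made mostly by dendritic cells and macrophages, and it acts on T and NK cells through a receptor of *Il12rb1* and *Il12rb2* to drive interferon gamma and cytotoxic genes through STAT4. The p40 subunit also pairs with p19 (*Il23a*) to give IL-23, which favours type 17 responses, and *Ebi3* pairs with p28 (*Il27*) to give IL-27 or with p35 to give IL-35. IL-18 is stored as a precursor that inflammasome caspase-1 cleaves, and it acts with IL-12 on cells that carry both chains of its receptor, *Il18r1* and *Il18rap*.

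In Siah2 KO tumors, both IL-12 receptor chains, the ligand-binding IL-18 receptor chain *Il18r1* and the cytokine subunit *Ebi3* rose, by between 1.82-fold and 5.42-fold, while *Il12b* fell. *Il18* and *Il18rap* did not pass the test. Of the 7 members whose mean reached 20 normalized counts, 5 passed at an adjusted p under 0.05, and over all 10 members 5 were higher and 1 lower, against 41.0% of the 770 probes called, 31.3% higher and 9.74% lower. With 10 members, nothing particular to them is read from these counts, since most changes on the panel ran upward: the median log2 fold change was 0.59 over the members and 0.24 over all probes. For 3 members (*Il12rb1*, *Il12rb2* and *Ebi3*) the Siah2 KO values all exceeded the WT values, and for 0 they were all lower, where 31.6% of all probes had groups without overlap (24.5% higher and 7.01% lower).

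The values are counts less a background constant, scaled by a factor for each tumor from the reference genes, and the sum over the 770 probes before that factor was between 382853 and 581656 per tumor. Between 39 and 84 probes per tumor were at the floor, the lowest value a tumor can have, which was 1 in 4 WT tumors, 1.32 in WT replicate 5 and between 1.03 and 1.60 in Siah2 KO tumors. The highest of 8 negative controls, multiplied by the factor of the tumor, lay between 2.31 and 15.8 normalized counts. The labels and methods name no batch for single tumors and do not say whether tumors shared a cage or litter. Among 3 genes used as markers of melanoma cells, *Mcam* and *Cspg4*, which vessel wall cells also make, were above the negative controls in all 10 tumors and *S100b* in 4. In Siah2 KO tumors *S100b* and *Cspg4* were lower (log2 fold changes -2.39 and -0.87), and the 3 genes summed to between 224 and 405 normalized counts, against 438 to 594 in WT tumors. This difference runs beside every result below, and its part in them was not tested. In bulk tumors, fewer cells of a type and less RNA per cell cannot be told apart. Levels of single genes are compared here only within a gene. Sums of marker lists mix probes of unlike level, and the subunit pairs are differences between probes. Values taken relative to a marker list use its median in the tumor. That median is the level of the middle probe or probes, which need not be the same genes in every tumor.

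*Il12rb2*, the chain of the IL-12 receptor that carries the STAT4 docking site, had 5.14, 17.9, 20.5, 6.29 and 20.1 normalized counts in WT replicates 2 to 6. In Siah2 KO replicates 1, 2, 3, 5 and 6 it had 81.9, 58.5, 101, 73.5 and 46.9. The groups did not overlap, and WT replicates 2 and 5 were not above the highest negative control. The means were 14.0 ± 7.64 in WT and 72.4 ± 20.9 in Siah2 KO tumors (± SD over 5 tumors), for a log2 fold change of 2.44 (SE 0.40, 95% confidence interval 1.55 to 3.33) or 5.42-fold, with an adjusted p of 0.0012 by limma and an exact permutation p of 0.0079, the smallest that 5 against 5 tumors allow in a two-sided test. It had the rank 6 from the top of the 770 probes by log2 fold change. All fold changes here are on the log2(value + 1) scale, which understates changes of low values, and with all values under 20 raised to 20 the log2 fold change of *Il12rb2* was 1.75.

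*Il12rb1*, the chain that binds p40 and is shared by the receptors of IL-12 and IL-23, had 35.8, 58.8, 36.1, 35.3 and 34.6 normalized counts in WT replicates 2 to 6. In the Siah2 KO tumors, in the order given above, it had 138, 110, 158, 118 and 73.7. The groups did not overlap: 4 WT tumors lay between 34.6 and 36.1, replicate 3 stood above them, and the lowest Siah2 KO tumor, replicate 6, was above it. The mean was 40.1 ± 10.5 in WT and 120 ± 31.7 in Siah2 KO tumors (± SD over 5 tumors), for a log2 fold change of 1.54 (SE 0.22, 95% confidence interval 1.05 to 2.02) or 2.90-fold, with an adjusted p of 0.00064 by limma and an exact permutation p of 0.0079.

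*Il18r1*, the chain that binds IL-18, had 55.0, 70.5, 60.0, 92.1 and 66.4 normalized counts in WT replicates 2 to 6 and 134, 140, 155, 190 and 83.0 in the Siah2 KO tumors. The groups overlapped by 1 tumor, since Siah2 KO replicate 6 lay below WT replicate 5, while the other 4 Siah2 KO tumors exceeded the WT range. The mean rose from 68.8 ± 14.3 to 141 ± 38.9 (± SD over 5 tumors), for a log2 fold change of 0.99 (SE 0.22, 95% confidence interval 0.51 to 1.48) with an adjusted p of 0.0048 by limma and an exact permutation p of 0.016. *Il18rap*, the accessory chain that the IL-18 receptor needs for signaling, lies next to *Il18r1* in the genome. It had 765, 755, 740, 719 and 649 normalized counts in WT and 890, 844, 1121, 805 and 723 in Siah2 KO tumors, where replicate 6 alone lay within the WT range and replicate 3 was the highest. The means were 726 ± 46.3 and 877 ± 150 (± SD over 5 tumors), for a log2 fold change of 0.26 (95% confidence interval -0.01 to 0.53) with an adjusted p of 0.11 by limma and an exact permutation p of 0.032. With each tumor left out in turn it was between 0.17 (without Siah2 KO replicate 3, adjusted p = 0.20) and 0.32 (without Siah2 KO replicate 6, adjusted p = 0.045), the only 1 of these 10 fits to pass.

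**Figure D1:**
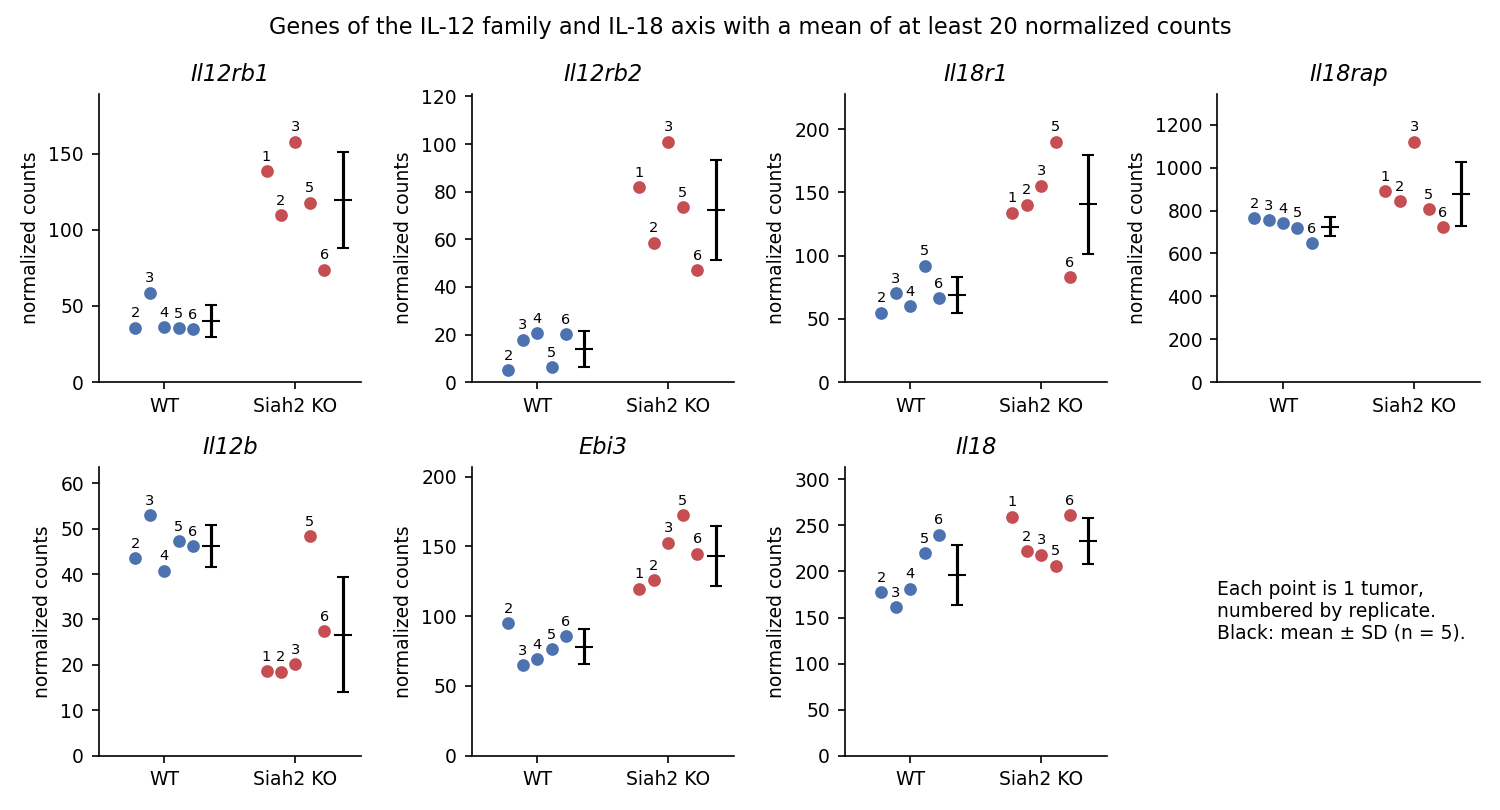
Normalized counts (vertical axes, from 0) of the 7 members with a mean of at least 20, for WT (blue) and Siah2 KO (red) tumors, each point 1 tumor with its replicate number and black bars the mean ± SD (n = 5). The groups are apart for *Il12rb1*, *Il12rb2* and *Ebi3*, and 1 Siah2 KO tumor crosses into the WT range for *Il18r1* (replicate 6) and *Il12b* (replicate 5).

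Among the Siah2 KO tumors, replicate 6 was the lowest for all 4 receptor chains, and replicate 3 was the highest for *Il12rb1*, *Il12rb2* and *Il18rap*. The receptors are known from T and NK cells, whose markers also differed between the groups. Of 8 T cell markers, 5 were higher and 0 lower after loss of host *Siah2*. Their sum was between 500 and 709 normalized counts in WT and between 747 (replicate 6) and 1381 (replicate 5) in Siah2 KO tumors. Their log2 fold changes ran from -0.29 for *Cd4* (adjusted p = 0.19 by limma) to 1.13 for *Cd8a* and 1.76 for *Cd8b1*. The scale used below is the median of all 8 and not of the CD8 chains, against which the receptors were not compared. Of 4 NK cell markers, 4 were higher, with sums of 796 to 1035 and 1311 to 2009. The receptors were not compared with the NK cell markers either. Taken relative to the median of the T cell markers in the same tumor, *Il12rb2* was higher by 1.78 (adjusted p = 0.0048 by limma) and *Il12rb1* by 0.88 (adjusted p = 0.030). On this scale 25.1% of probes were called, 4.68% higher and 20.4% lower. On the same scale the difference was 0.34 for *Il18r1* (adjusted p = 0.31) and -0.40 for *Il18rap*.

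*Il12b*, which encodes p40, had 43.5, 53.0, 40.7, 47.2 and 46.2 normalized counts in WT replicates 2 to 6 and 18.7, 18.5, 20.2, 48.4 and 27.4 in the Siah2 KO tumors. The WT tumors were close together, with a coefficient of variation of 9.96% against 47.7% in Siah2 KO tumors, where 4 values were under the whole WT range and replicate 5 was inside it. The mean fell from 46.1 ± 4.59 to 26.6 ± 12.7 (± SD over 5 tumors), for a log2 fold change of -0.86 (SE 0.24, 95% confidence interval -1.40 to -0.32) with an adjusted p of 0.017 by limma and an exact permutation p of 0.040. It had the rank 33 from the bottom of the 770 probes. Without Siah2 KO replicate 5 the log2 fold change was -1.10 (adjusted p = 0.00069).

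Macrophages and dendritic cells are known to make p40. Of 5 macrophage markers, 2 were higher (*Cd68* by 0.87 and *Fcgr1* by 0.72) and 0 lower in the Siah2 KO group. *Emr1* (0.27), *Csf1r* (-0.02) and *Mertk* (-0.06) did not pass the test. The 5 markers had sums of 4743 to 5876 normalized counts in WT and 6512 to 10000 in Siah2 KO tumors. Of 5 dendritic cell markers, 1 was higher (*Itgax*, an integrin also found on macrophages, by 0.86) and 0 lower. The defining markers *Xcr1* and *Cd207* were under 20 in every tumor, and *Flt3* and *Ccr7* had log2 fold changes of -0.53 and -0.65 that did not pass the test. The list summed to between 257 and 340 in WT and between 233 and 376 in Siah2 KO tumors. The highest was replicate 5, the one with high *Il12b*, but replicate 3, with *Il12b* at 20.2, had 360. Replicate 5 also had the highest sums of T cell, NK cell, macrophage and leukocyte markers. Relative to the median of the macrophage markers, *Il12b* was lower by a log2 fold change of -1.19 (adjusted p = 0.00051 by limma). Relative to that of the dendritic cell markers the difference was -0.44 (adjusted p = 0.23). The dendritic cell median was the value of *Flt3* or *Xcr1* in every tumor, at most 30.6 normalized counts, so this scale rests on low genes. The part of macrophages and dendritic cells in the result was not tested. The call was also lost in the test with unequal variances (adjusted p = 0.062), in the 8 tumors with a replicate number found among both WT and Siah2 KO tumors (adjusted p = 0.061) and with scaling to the positive controls (-1.02, adjusted p = 0.056).

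The partner subunits of p40 were at background. *Il12a* (p35) was between 1 and 5.49 normalized counts and *Il23a* (p19) between 1 and 3.78. *Il12a* was above the highest negative control of its tumor in 1 of 5 WT and 0 of 5 Siah2 KO tumors, and *Il23a* in 0 of 10. Neither passed the test (adjusted p = 0.56 and 0.85 by limma), and at this signal a difference in p35 or p19 was not detectable.

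**Figure D2:**
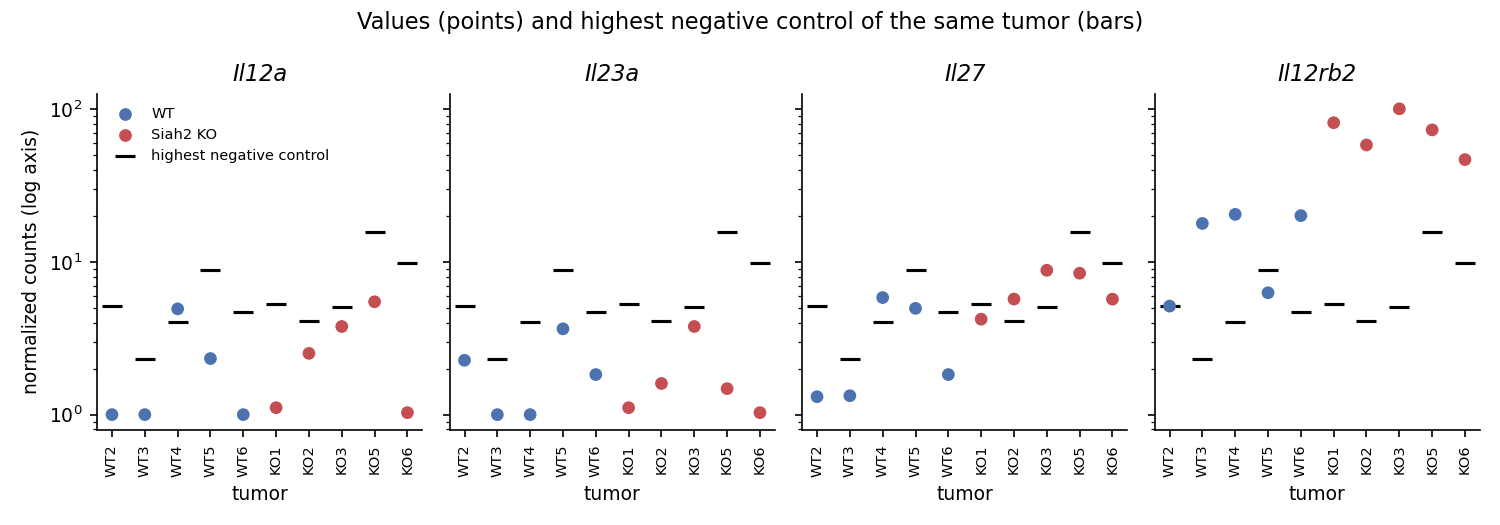
Normalized counts (vertical axes, logarithmic) of *Il12a*, *Il23a*, *Il27* and *Il12rb2* in each WT (blue) and Siah2 KO (red) tumor, with a black bar at the highest negative control of the same tumor times its factor. *Il12a*, *Il23a* and *Il27* lie around or under the bars, whereas *Il12rb2* is above the bar in all 5 Siah2 KO tumors and 3 WT tumors.

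*Ebi3*, the soluble receptor-like subunit of IL-27 and IL-35, had 95.2, 64.7, 69.2, 76.2 and 85.7 normalized counts in WT replicates 2 to 6 and 120, 126, 153, 172 and 145 in the Siah2 KO tumors. The lowest value in the Siah2 KO group, in replicate 1, exceeded the highest WT value, in replicate 2. The mean rose from 78.2 ± 12.4 to 143 ± 21.3 (± SD over 5 tumors), for a log2 fold change of 0.86 (SE 0.14, 95% confidence interval 0.56 to 1.17) or 1.82-fold, with an adjusted p of 0.0011 by limma and an exact permutation p of 0.0079. Leukocyte markers moved with it: 6 of 8 were higher and 0 lower, with sums of 4171 to 5061 in WT and 6212 to 9288 in Siah2 KO tumors. Relative to their median in each tumor the log2 fold change of *Ebi3* was 0.45 (adjusted p = 0.045), where 37.0% of probes were called, 13.4% higher and 23.6% lower, and relative to the T cell markers 0.21 (adjusted p = 0.59).

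*Il27* (p28), the partner of *Ebi3* in IL-27, was between 1.31 and 5.85 normalized counts in WT and between 4.22 and 8.83 in Siah2 KO tumors. It passed the test at an adjusted p of 0.038 by limma, with an exact permutation p of 0.056. Since it was above the highest negative control in 1 of 5 WT and 2 of 5 Siah2 KO tumors, the call rests on values at background and no fold is given. It was lost, at adjusted p between 0.051 and 0.088, when any 1 of WT replicates 2, 3 and 6 or Siah2 KO replicates 2, 3, 5 and 6 was left out.

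*Il18* had 178, 161, 181, 220 and 240 normalized counts in WT replicates 2 to 6 and 259, 222, 218, 206 and 261 in the Siah2 KO tumors. The groups overlapped, with 2 Siah2 KO tumors above the highest WT tumor. The means were 196 ± 32.8 and 233 ± 25.2 (± SD over 5 tumors), for a log2 fold change of 0.26 (95% confidence interval -0.03 to 0.55, or 0.981-fold to 1.46-fold) with an adjusted p of 0.13 by limma and an exact permutation p of 0.071. Scaling to the median of the endogenous probes moves all genes by about the median over all probes. With it the differences were about 0, at -0.0046 for *Il18* (adjusted p = 0.98 by limma) and -0.0069 for *Il18rap* (adjusted p = 0.97).

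**Figure D3:**
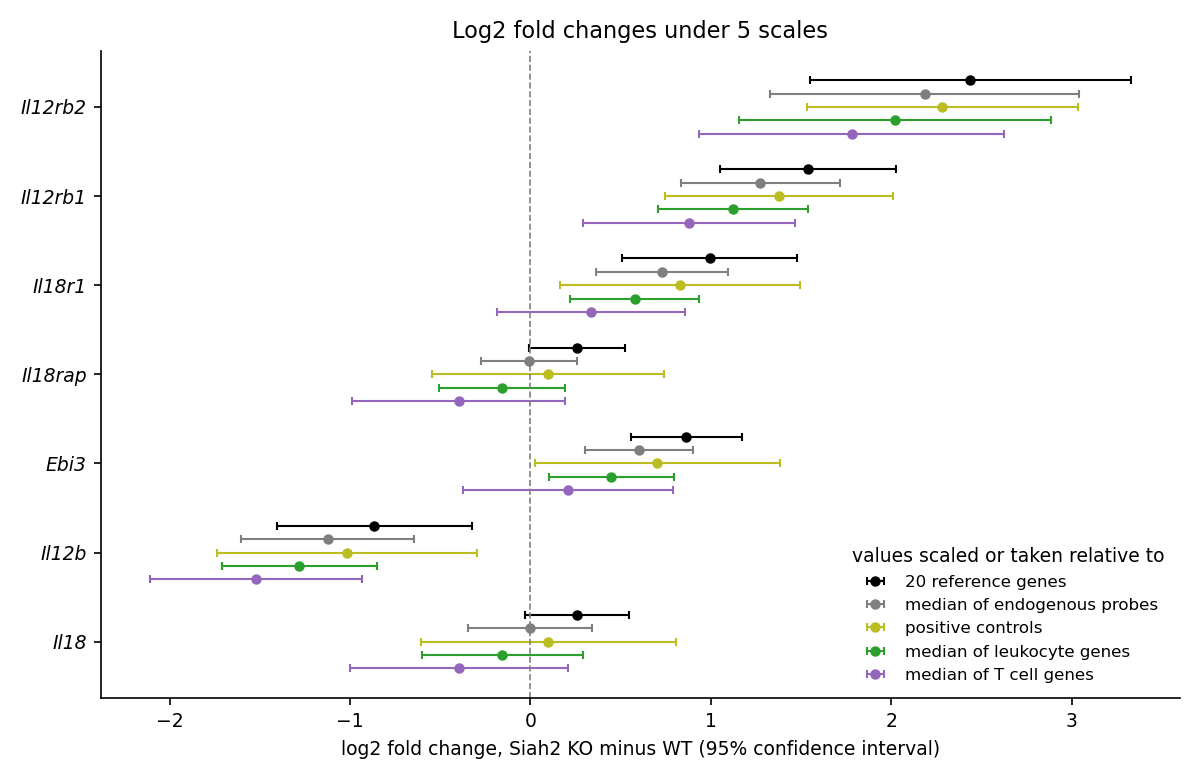
Log2 fold change, Siah2 KO minus WT (horizontal axis), with its 95% confidence interval for the 7 members with a mean of at least 20, with values scaled to the 20 reference genes as deposited, to the median of the endogenous probes or to the positive controls, or taken relative to the median of the leukocyte or T cell markers. *Il12rb2* and *Il12rb1* stay above 0 and *Il12b* below 0 on all 5 scales, and *Il18* and *Il18rap* lie on either side of 0.

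The direction of *Il12rb2*, *Il12rb1*, *Il18r1*, *Ebi3* and *Il12b* was the same on all 5 scales of the plot of fold changes by scale. With scaling to the median of the endogenous probes, on which 40.9% of probes were called (21.2% higher and 19.7% lower), the log2 fold changes were 2.18 for *Il12rb2*, 1.28 for *Il12rb1*, 0.73 for *Il18r1*, 0.60 for *Ebi3* and -1.12 for *Il12b*, and all 5 passed the test. With scaling to the positive controls, on which 12.2% of probes were called (7.66% higher and 4.55% lower), *Il12rb2* (2.28) and *Il12rb1* (1.38) passed, while *Il18r1* was 0.83 (adjusted p = 0.10) and *Ebi3* 0.70 (adjusted p = 0.19).

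Whether the subunits of one receptor or cytokine differed by the same amount was tested on the difference of their log2 values within a tumor, for 5 pairs. *Il12rb2* minus *Il12rb1* was -1.62 ± 0.85 in WT and -0.72 ± 0.11 in Siah2 KO tumors (SD, n = 5 each), a shift of 0.90 with an exact permutation p of 0.040 (0.079 after adjustment over the 5 pairs). With values under 20 raised to 20, which 3 WT values of *Il12rb2* were, the shift was 0.21 (adjusted p = 0.11). *Il18rap* minus *Il18r1* was 3.40 ± 0.32 and 2.67 ± 0.38, a shift of -0.73 with an exact permutation p of 0.016 (0.079 adjusted). Hence a shift in the balance of the 2 chains passed after adjustment for neither receptor. The shift was -1.18 for *Il12b* minus *Il12a* (exact permutation p = 0.048, 0.079 adjusted), -0.79 for *Il12b* minus *Il23a* (0.11, 0.14 adjusted) and 0.16 for *Il27* minus *Ebi3* (0.70 before and after), each with a gene at background. Without WT replicate 4 the adjusted p was 0.040 for *Il12rb2* minus *Il12rb1* and for *Il12b* minus *Il12a*.

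To show the DNA beside 3 of the members that passed the test, the 250 bases before the start were read from RefSeq windows on GRCm38.p6, which held 7 of the 10 members. The windows of *Il12rb2*, which rose most among the members, *Ebi3*, and *Il12b*, which fell, are given 5′ to 3′ on the strand of the gene, with motif matches in capitals.
Il12rb2, chr6:67376189-67376438, minus strand: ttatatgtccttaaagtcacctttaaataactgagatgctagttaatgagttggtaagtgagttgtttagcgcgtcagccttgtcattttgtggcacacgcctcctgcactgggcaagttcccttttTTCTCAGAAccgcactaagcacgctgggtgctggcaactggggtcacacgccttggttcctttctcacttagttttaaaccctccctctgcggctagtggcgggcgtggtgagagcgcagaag
Ebi3, chr17:55952373-55952622, plus strand: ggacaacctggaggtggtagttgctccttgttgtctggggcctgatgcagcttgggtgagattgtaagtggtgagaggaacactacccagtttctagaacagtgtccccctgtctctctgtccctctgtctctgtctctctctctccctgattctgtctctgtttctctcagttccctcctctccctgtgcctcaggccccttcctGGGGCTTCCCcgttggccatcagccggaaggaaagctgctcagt
Il12b, chr11:44399813-44400062, plus strand: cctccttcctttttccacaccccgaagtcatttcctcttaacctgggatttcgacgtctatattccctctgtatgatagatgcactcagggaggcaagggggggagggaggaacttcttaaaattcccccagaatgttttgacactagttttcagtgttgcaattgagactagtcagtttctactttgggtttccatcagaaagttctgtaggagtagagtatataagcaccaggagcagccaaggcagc
The motifs searched on both strands were TTCNNNGAA (a gamma-activated site, bound by STAT proteins), GAAA followed after any 2 bases by GAAA (an interferon-stimulated element, bound by interferon regulatory factors), TGANTCA (bound by AP-1), GGG, any 2 bases, TT, any base and CC (a kappa B site, bound by NF-kB), AGGTGTGA (bound by T-box factors such as T-bet) and TATAAA (the TATA box). The *Il12rb2* window holds 1 gamma-activated site, between 123 and 115 bases before the start, as do 7.02% of 32851 windows of this length. The *Ebi3* window holds 1 NF-kB match, between 44 and 35 bases before the start, as do 4.11% of windows. The other motifs occur in 2.98% (interferon-stimulated element), 6.75% (AP-1), 1.12% (T-box) and 12.4% (TATA box) of windows, overlaps between motifs being allowed. No match to these letters is in the *Il12b* window, and 1 of the alternative starts of *Il18r1* has 2 gamma-activated sites. Sites of the same factors with other letters were not searched, so a window without a match is not shown to lack them. A match describes the letters and not binding.

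The genes whose profiles over the 10 tumors were most like those of the called members are described by the root mean square difference of log2 values, each gene centred on its own mean, over 601 other probes with a mean of at least 20. For *Il12rb1* these were *Lgals3*, *Il1rl1* and *Klrc1* (0.236, 0.243 and 0.276, with a median of 0.740 over the probes), and for *Il12rb2* *Cd274*, *Ptgs2* and *Ccl11* (0.548, 0.643 and 0.647, median 1.26). *Il18r1* was nearest to *Msr1*, *H2-T23* and *Cd68* (0.184, 0.193 and 0.193, median 0.509), and *Ebi3* to *Irak2*, *Fcer1g* and *Ptprc* (0.143, 0.177 and 0.180, median 0.441). *Il12b* was nearest to *Apoe*, *H2-DMb2* and *Siglec1* (0.263, 0.290 and 0.295, median 0.701). The 10 tumors share the difference between the groups, so these are descriptions and carry no test.

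Around the members, 45 genes of 5 pathway lists were measured, and in Siah2 KO tumors 18 of them were higher and 2 lower (44.4%, against 41.0% of all probes), with a median log2 fold change of 0.33. By direction, 31.3% of all probes were higher and 9.74% lower, the shares beside which the counts of single lists below stand. Among the response genes of IL-12 and IL-18 in T and NK cells, 8 of 9 were higher and 0 lower, with a median of 1.07. These were led by *Ifng* (interferon gamma, 1.92), *Gzmb* and *Prf1* (granzyme B and perforin of the cytotoxic granule, 1.85 and 1.34) and *Fasl* (a death ligand, 1.33), and *Eomes*, a T-box factor, was 0.42 with an adjusted p of 0.058 by limma. Most of the T and NK cell markers given above were also higher in Siah2 KO tumors. Their sums were highest in replicate 5, and that of the response genes in replicate 3 (4084 normalized counts). The response genes are not given relative to these markers, and the part of T and NK cells in their difference was not tested.

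Of 7 JAK-STAT transducers and other receptor chains, 1 was higher and 0 lower. It was *Stat3*, a transducer of IL-23 and IL-27 signals, which rose by 0.31 (adjusted p = 0.041 by limma). *Stat4*, the transducer of IL-12, was 0.33 with an adjusted p of 0.16, and *Jak2* and *Tyk2*, its kinases, were 0.18 and 0.03. The IL-23 receptor chain *Il23r* was under 20 in every tumor.

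Of 12 genes of IL-18 processing and signal adaptors, 5 were higher and 1 lower. *Nlrp3*, an inflammasome sensor, went up to 177 ± 49.8 normalized counts from 79.8 ± 9.86 (± SD over 5 tumors, log2 fold change 1.10, adjusted p = 0.0014 by limma). *Mefv* (pyrin, 1.06), *Pycard* (the adaptor ASC, 0.83) and *Casp1*, which cleaves pro-IL-18 (0.59), also rose, as did the receptor kinase gene *Irak2* (0.82), whereas *Tab1* fell by 0.27. The cytokine *Il18* itself did not pass the test.

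Of 10 measured activators of the IL-12 and IL-23 subunit genes in myeloid cells, 4 were higher and 0 lower. They were *Irf1* (0.91), *Irf8* (0.70) and *Irf5* (0.53), transcription factors known to act on *Il12b* or *Il12a*, and the endotoxin receptor *Tlr4* (0.35). *Il12b* was called lower in the same comparison. Every Siah2 KO tumor had an activator sum above the WT range of 4108 to 5232 normalized counts, the lowest being 5975 in replicate 6. The sum was 8566 in replicate 5, where *Il12b* was inside the WT range. It was highest in replicate 3, at 9002, where *Il12b* was 20.2. A link between the activators and *Il12b* was not tested. Of 7 type 17 genes, 0 were higher and 1 was lower, the IL-1 receptor *Il1r1*, which stromal cells also make (787 ± 66.5 to 495 ± 52.2 normalized counts, log2 fold change -0.67, adjusted p = 0.00085 by limma). Beside it, 4 of 4 fibroblast markers were lower, with sums of 16494 to 21344 in WT and 10332 to 12326 in Siah2 KO tumors. *Cd40lg*, *Il17a*, *Il17f*, *Il22*, *Il21* and *Ccr6* were under 20 in every tumor. The medians of the JAK-STAT, IL-18 processing and type 17 lists (0.18, 0.20 and 0.11) turned to -0.090, -0.061 and -0.035 with scaling to the median of the endogenous probes.

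**Figure D4:**
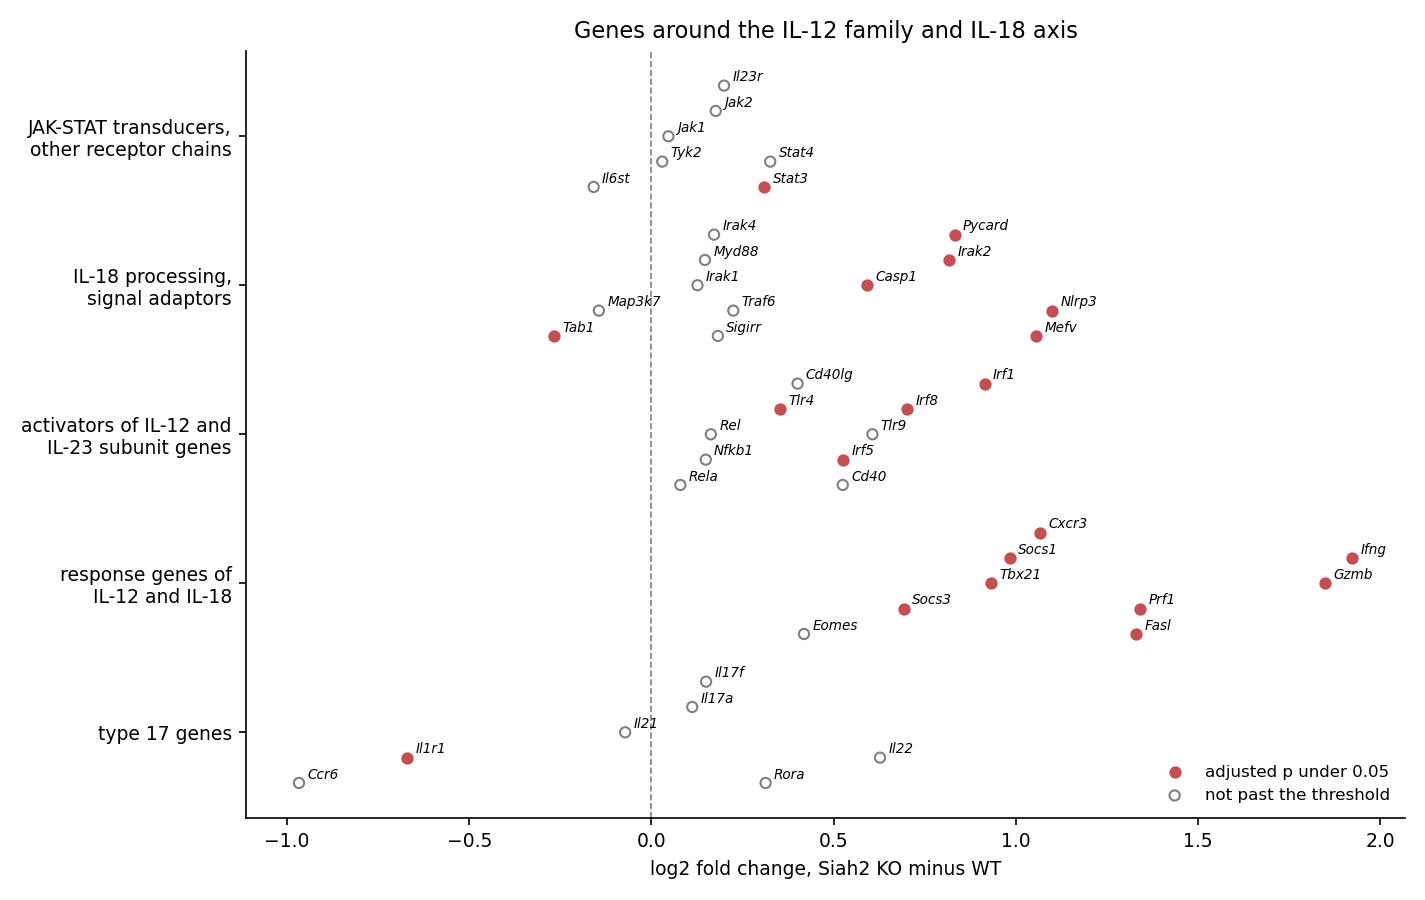
Log2 fold change, Siah2 KO minus WT (horizontal axis), of 45 genes in 5 lists (rows), with filled points at an adjusted p under 0.05 by limma and open points for genes that did not pass. The response genes of IL-12 and IL-18 lie at 0.42 and above, and the genes that passed below 0 are *Tab1* and *Il1r1*.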

How the data were processed

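RNA from 10 YUMMER1.7 tumors (5 WT, 5 Siah2 KO; groups and replicate numbers from the labels) was measured on a NanoString panel with 100 ng RNA per assay. The authors deposited the signal of each of 784 probes as normalized counts, made with nSolver by scaling to the geometric mean of 20 reference genes after exclusion of samples whose positive controls were outliers. The values also show that a constant had been subtracted and that a lower limit of 1 holds both before and after scaling, so that the floor of a tumor is its factor or 1, whichever is higher. In every tumor 100% of the values checked lay within 0.1 of a whole step of a factor between 0.918 and 1.60. The values checked were under 150 and left out those at or just above the floor. The factor was itself chosen to make the mean distance from whole steps smallest. Counts before this subtraction were not used, so no count model was fitted.

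From these, log2(value + 1) of 770 probes was compared, Siah2 KO minus WT, with limma 3.58.1 (R 4.3.3), two-sided, Benjamini-Hochberg adjusted over all 770 and called under 0.05. Exact two-sided permutation tests over the tumors were used for single members and subunit pairs. P-values measure the spread between these tumors. The members and lists were chosen with earlier results of these data known. All members are named, together with up to 4 called genes per pathway list with a mean of at least 20 (largest change first), list genes under 20 in every tumor, and the 3 nearest profiles of each called member. *Casp1*, *Tab1*, *Eomes*, *Stat4*, *Jak2* and *Tyk2* were named after their values were seen. The alternatives were median, quantile, stable reference gene and positive control scaling, values relative to leukocyte or T cell markers, low-value filter, floor of 20, pseudocount, endogenous probes only, t-tests of the methods with equal and unequal variances, an intensity trend, the replicate block, its 8 tumors without block, and leaving out each tumor. Values relative to macrophage or dendritic cell markers were added after seeing the data. Endothelial (1 higher and 1 lower of 4), neutrophil (1 higher of 4) and B cell (1 higher of 4) markers were also counted. Of the pathway lists, 2 genes are not reported here and are left out of the counts. The steps were tested on simulated data. Plots used Python 3.11.15 and matplotlib 3.10.9.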

Additional observations from a re-analysis of the deposited data

Results flagged for a closer look

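In 3 of the 48 groups of 5 tumors looked at, 1 tumor stood far from the other 4, where chance flags about 1 in 20 groups. *Il12rb1* was 58.82 normalized counts in WT replicate 3 against 34.6 to 36.13 in the other WT tumors. *Il23a* was 3.78 in Siah2 KO replicate 3 against 1.03 to 1.6 in the others, all at or under the negative controls. *Pycard* was 31.47 in Siah2 KO replicate 6 against 44.16 to 50.5.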

How the results depend on the processing

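The number of members called, 6, was between 5 and 6 with each tumor left out and fell to 2 with positive control scaling and 3 relative to T cell markers. For pathway genes the count of 20 was between 17 and 22 with each tumor left out, 4 with positive control scaling and 7 relative to T cell markers. Over all 770 probes the share called also fell, from 41.0% to 12.2% with positive control scaling and 25.1% relative to T cell markers. *Il12rb2* and *Il12rb1* passed under all 17 alternatives and with each tumor left out. The log2 fold change of *Il18* was -0.0046 with median scaling, -0.052 with quantile normalization, -0.16 relative to leukocyte, -0.40 relative to T cell and -0.067 relative to macrophage markers, the last chosen after seeing the data. That of *Il18rap* was -0.0069, -0.12, -0.16, -0.40 and -0.069. With a pseudocount of 10 the pair shifts were 0.45 for *Il12rb2* minus *Il12rb1* (adjusted exact permutation p = 0.14), -0.65 for *Il18rap* minus *Il18r1*, -0.75 for *Il12b* minus *Il12a*, -0.65 for *Il12b* minus *Il23a* and -0.44 for *Il27* minus *Ebi3*, the last 4 at 0.050 or less. This pseudocount flattens genes at background: *Il12a*, *Il23a* and *Il27* changed by 0.084, -0.018 and 0.35, beside -0.67 for *Il12b* and 0.80 for *Ebi3*. The last 3 shifts are therefore mostly those of *Il12b* and *Ebi3* and are not read as a balance of subunits, and the last turned from 0.16. With values under 20 raised to 20 they were 0.21 (0.11) and -0.73 (0.040) for the receptor pairs. No value of *Il18rap* or *Il18r1* was under 20, so that shift and its exact permutation p of 0.016 are those of the main test. Its adjusted p fell from 0.079 only because the other pairs in the adjustment changed. With this floor *Il12a*, *Il23a* and *Il27* are constant. The values of -0.82, -0.82 and -0.86 for the other pairs are therefore the change of *Il12b* and minus that of *Ebi3*, and test no balance of subunits. With each tumor left out the shifts were 0.66 to 1.12 for *Il12rb2* minus *Il12rb1*, -0.85 to -0.59 for *Il18rap* minus *Il18r1*, -1.50 to -0.99 for *Il12b* minus *Il12a*, -1.05 to -0.51 for *Il12b* minus *Il23a* and -0.074 to 0.43 for *Il27* minus *Ebi3*. The causes of the other changes were not tested.

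The replicate numbers were not taken to pair the tumors, since the labels give no shared origin and not every correlation of deviations was over 0.1: it was between 0.05 and 0.49 over 4 numbers and over 0.1 for 3, and 2 of the 4 WT tumors correlated best with their own number. With the number as a replicate block over 8 tumors, 5 members and 17 pathway genes were called, as many as in the same tumors with no block. The share over all probes was not taken for these 2 fits, so nothing is read from the counts. *Il12b* was -0.81 (adjusted p = 0.068 by limma, 0.061 in the same tumors with no block). The pair shifts with the block were 1.12, -0.70, -1.57, -0.69 and 0.50, in the order above. At signals near the negative controls, *Il12a*, *Il23a* and *Il27* give no usable difference.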
